A study of Mus musculus with 32 samples.

Results

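Vmn2r19 to Vmn2r27 form a cluster of vomeronasal type 2 receptor (V2r) genes on mouse chromosome 6. The 9 genes with these symbols were taken from the deposited tables, which list 49671 genes. All 9 were found once each, and all 9 passed the filter on low counts, as did 112 of the 114 other genes with a V2r symbol. RNA had been measured in the vomeronasal epithelia of 32 individual mice. They were 4 males and 4 females of each of the strains C57/BL6 (B6), 129S6/SVEV (129), SJL/J (SJL) and SWR/J (SWR), with no allele or treatment named in the labels, and 42 days old. Total RNA was depleted of ribosomal RNA and read from stranded libraries, and the reads of every strain were placed on the B6 genome. The substrain of the 129 mice is given here as in the labels, and the study's text names it 129Sv/J. The study asked which VNO genes differ between strains and between the sexes.

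V2rs are receptors with 7 membrane-spanning helices and a large outer domain that binds peptides and proteins. They are used by sensory neurons of the basal layer of the VNO, which signal through the G protein subunit Gnao1. Such a neuron usually combines a variable V2r, of which the cluster described here holds a set, with a broadly expressed co-receptor of family C. Many of them also carry class Ib MHC genes of the H2-Mv group. Vmn2r26, also known as V2r1b, is known for its part in the detection of peptides that bind MHC class I molecules. VNO epithelium is bulk tissue, so that fewer neurons using a receptor and less RNA per neuron cannot be told apart in these counts.

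The genes lie at chr6:123308333-124231856 of GRCm38, a stretch of 923524 bases. Each has 6 exons and a coding part of 2547 to 2571 bases. Vmn2r19, Vmn2r23, Vmn2r24 and Vmn2r26 are on the plus strand, and the other 5 are on the minus strand. Vmn2r24 and Vmn2r25 run towards each other and overlap by 3267 bases (chr6:123821646-123824912), which the authors' strand-specific counts keep apart. The map of the cluster shows the positions beside the mean level of each gene in each strain.

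**Figure D1:**
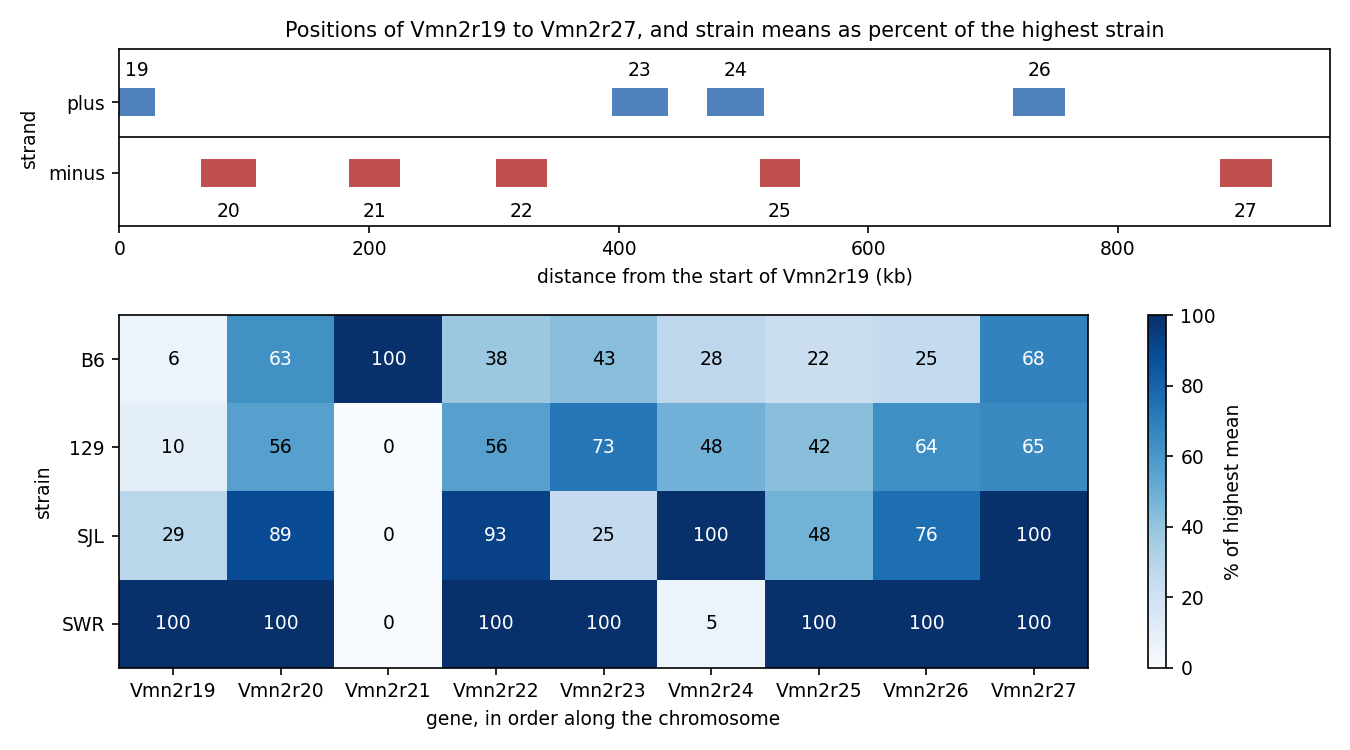
Upper panel, the 9 genes as boxes by strand, against the distance from the start of Vmn2r19 in kb. Lower panel, the mean normalized count of each gene in each strain (n = 8 mice) as a percentage of that gene's highest strain mean. Vmn2r21 is at 100% in B6 and near 0 in the other strains, and Vmn2r24 is at 5.29% in SWR. SWR has the highest mean of 7 genes, among them Vmn2r27, where SJL is at 99.96% of it.

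Several of the genes are close copies of each other, and this bears on what their counts hold. The coding parts of Vmn2r20 and Vmn2r21 differed at 14 of 2559 bases (identity 99.5%) and were the same over the first 1334 bases. Vmn2r21 and Vmn2r22 differed at 45 bases (98.2%), and Vmn2r25 and Vmn2r26 at 69 of 2564 (97.3%). Every other pair was between 85.7% and 89.9%, apart from Vmn2r20 and Vmn2r22 at 97.7%. A stretch of exon 5, coding bases 1546 to 1665, is shown because it holds bases that tell Vmn2r20 from the next copy. Capitals mark the positions where the 3 copies are not all alike, and sequences are from the B6 reference transcripts of GENCODE M21 on the minus strand of GRCm38 (Vmn2r20 at chr6:123393855-123393974, Vmn2r21 at chr6:123509218-123509337, Vmn2r22 at chr6:123626439-123626558).
Vmn2r20: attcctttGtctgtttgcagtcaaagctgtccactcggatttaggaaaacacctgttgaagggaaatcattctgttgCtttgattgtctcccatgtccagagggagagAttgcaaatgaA
Vmn2r21: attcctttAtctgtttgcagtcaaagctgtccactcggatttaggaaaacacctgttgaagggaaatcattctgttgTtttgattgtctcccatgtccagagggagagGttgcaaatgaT
Vmn2r22: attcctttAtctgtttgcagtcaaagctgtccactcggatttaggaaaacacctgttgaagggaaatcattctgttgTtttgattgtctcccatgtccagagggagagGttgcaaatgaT
In this stretch Vmn2r20 and Vmn2r21 differ at 4 positions, and Vmn2r21 and Vmn2r22 at 0. A single read from within it is therefore not unique to Vmn2r21. Of the read-length windows of its coding part, 95.9% also occur in a transcript of another gene, so that 101 of 2435 windows are its own. The share was 62.0% for Vmn2r20, 47.7% for Vmn2r22 and 13.5% for both Vmn2r25 and Vmn2r26. It was 0.246% for Vmn2r19 and 0 for Vmn2r23, Vmn2r24 and Vmn2r27. These windows cover the coding part only, while reads were counted over all exons. The exons of GENCODE M21 together hold 15552 bases for Vmn2r20 and 7199 for Vmn2r22, against 2562 for Vmn2r21. Only uniquely placed reads were counted, so the counts of Vmn2r20, Vmn2r21 and Vmn2r22 leave out reads that fit several copies and are uncertain between the copies. Read pairs can be unique where a single read is not, and what this recovers was not tested.

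**Figure D2:**
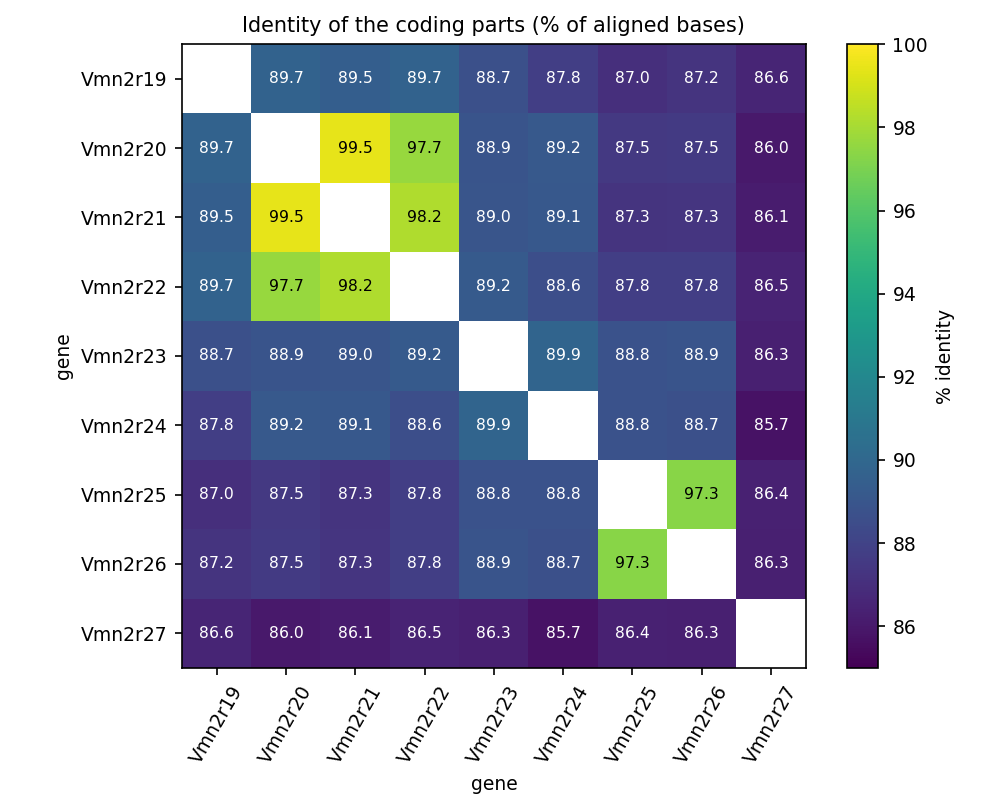
Identity of the coding parts of the 9 genes in the B6 reference, in percent of aligned bases, for each pair of genes (rows and columns, in chromosome order). Vmn2r20, Vmn2r21 and Vmn2r22 form a block at 97.7% to 99.5%, Vmn2r25 and Vmn2r26 stand at 97.3%, and Vmn2r27 is at 86.6% or less with every other gene.

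The genes also share a run of bases before their coding start. Windows of 300 bases around the gene starts were taken from RefSeq (GRCm38.p6), which gave 1 for 8 of the 9 genes, all but Vmn2r21. In these 8 windows the start was the coding start of the GENCODE transcript. The longest run shared by the 8 windows was the 15 bases AACAATGCTTTATAA, found by searching these windows. It lay 131 to 143 bases before the coding start. For Vmn2r23, Vmn2r25 and Vmn2r26 it fell within the GENCODE transcript used here, in the part before the coding start, and for the other genes outside it. The run is shown in capitals with the bases beside it, read along each gene's own strand.
Vmn2r19 (chr6:123308191-123308220, plus): aggacaaAACAATGCTTTATAAacttgatc
Vmn2r20 (chr6:123418181-123418210, minus): aggacaaAACAATGCTTTATAAcctcgatt
Vmn2r22 (chr6:123650755-123650784, minus): aggaccaAACAATGCTTTATAAcctcgatt
Vmn2r23 (chr6:123702671-123702700, plus): aggacaaAACAATGCTTTATAAacttgacc
Vmn2r24 (chr6:123778823-123778852, plus): agaagaaAACAATGCTTTATAAtctcatcc
Vmn2r25 (chr6:123853299-123853328, minus): aggacacAACAATGCTTTATAAccttgatc
Vmn2r26 (chr6:124024609-124024638, plus): aggacacAACAATGCTTTATAAccttgatc
Vmn2r27 (chr6:124231893-124231922, minus): aggacaaAACAATGCTTTATAAatttgatc
Searched on both strands of the 32851 windows of all genes, the run occurred in 8 (0.0244%), and these were the 8 windows of the cluster. With 2 mismatches allowed it occurred in 60 windows, these 8 included, and in 0 of the 109 windows of other V2r genes. Whether the windows of those genes also lie at the coding start was not checked, so they may cover another part. The match is a description of the B6 sequence. The run was picked as one that all 8 windows hold, so it cannot separate these genes by strain pattern. The sequence of the other strains was not read.

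The libraries held 5106398 to 18640871 reads on genes, which sets the precision of the low members. The summed markers of mature vomeronasal neurons were high in every library, with a normalized count of 24213 to 38413. Not every listed marker was high. Stoml3 had strain medians of 8.28 to 16.8, with a highest value of 228 in B6. Trpc2 was listed at 0 in all 32 while Xntrpc, which overlaps it, was not. Markers listed for 5 other kinds of cell and for glands also had reads, though not every marker did so at a high level. Among the 6 listed for main olfactory sensory neurons, Cnga2 had strain medians of 0.412 to 4.42, with a highest value of 134 in B6. Gnal had strain means of 18.8 to 57.3. The largest part of that sum came from Ano2, with strain means of 2319 to 2452, so the sum alone does not show that these neurons were present. The summed gland markers ran from 2447 to 106444, and those of respiratory ciliated cells were far higher in B6 female replicate 1 (2619, against 394 in the next B6 library) and 129 male replicate 1 (4311, against 943). Without these 2 libraries the number of members called in each pair of strains was the same. The part of the gland markers in the results was not tested. Levels below are the deposited normalized counts, in which each library's reads were scaled by its DESeq2 size factor.

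Strains were compared in 6 pairs with the quasi-likelihood test of edgeR on the raw counts, with Benjamini-Hochberg adjustment over 18382 genes. Calls needed a fold change (FC) above 2 together with a false discovery rate (FDR) below 0.05. LFC is the log2 fold change, with its standard error (SE). Of the 9 genes, 7 were called in at least 1 pair, and Vmn2r20 and Vmn2r27 were not. The background was 19.8% of all tested genes, and 72 of the 112 other V2r genes tested were called. SWR against B6 gave 7 calls (background 8.05%), with 5 genes higher in SWR (background 2.52%) and 2 lower (background 5.53%). SJL against B6 gave 6 (background 7.99%), with 5 higher in SJL (background 2.67%) and 1 lower (background 5.33%). SWR against SJL gave 4 (background 4.50%), with 3 higher in SWR (background 2.19%) and 1 lower (background 2.31%). SWR against 129 gave 3 (background 7.73%), with 2 higher in SWR (background 4.62%) and 1 lower (background 3.11%). SJL against 129 also gave 3 (background 8.38%), with 2 higher in SJL (background 5.61%) and 1 lower (background 2.76%). The fewest, 2, were in 129 against B6 (background 11.1%), where Vmn2r26 was higher in 129 (background 2.40%) and Vmn2r21 lower (background 8.72%). The pairs share strains, so these counts are not independent.

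The median LFC of the 9 genes was 1.25 for SWR against B6, 1.13 for SJL against B6 and 0.73 for 129 against B6. The medians of the 112 other V2r genes were 0.13, -0.04 and -0.50, and those of all tested genes were -0.02 in each of the 3 pairs. Among the other V2r genes 40 were called lower and 9 higher in 129 than in B6. When library size was set to the reads on the V2r genes outside the cluster, the median LFC of all genes moved by 0.37 for 129 against B6, by 0.14 for SJL against B6 and by 0.03 for SWR against B6. It moved by -0.22 for SJL against 129, by -0.34 for SWR against 129 and by -0.11 for SWR against SJL. Under that scale, 129 against B6 had 5 members higher and 1 lower in place of 1 and 1. SJL against 129 and SWR against 129 each had 1 higher and 1 lower in place of 2 and 1, and SWR against SJL had 2 higher and 1 lower in place of 3 and 1. Of all genes, 1872 of 18382 were called on that scale in 129 against B6. The share was 8.20% in SJL against 129, 9.24% in SWR against 129 and 4.67% in SWR against SJL.

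**Figure D3:**
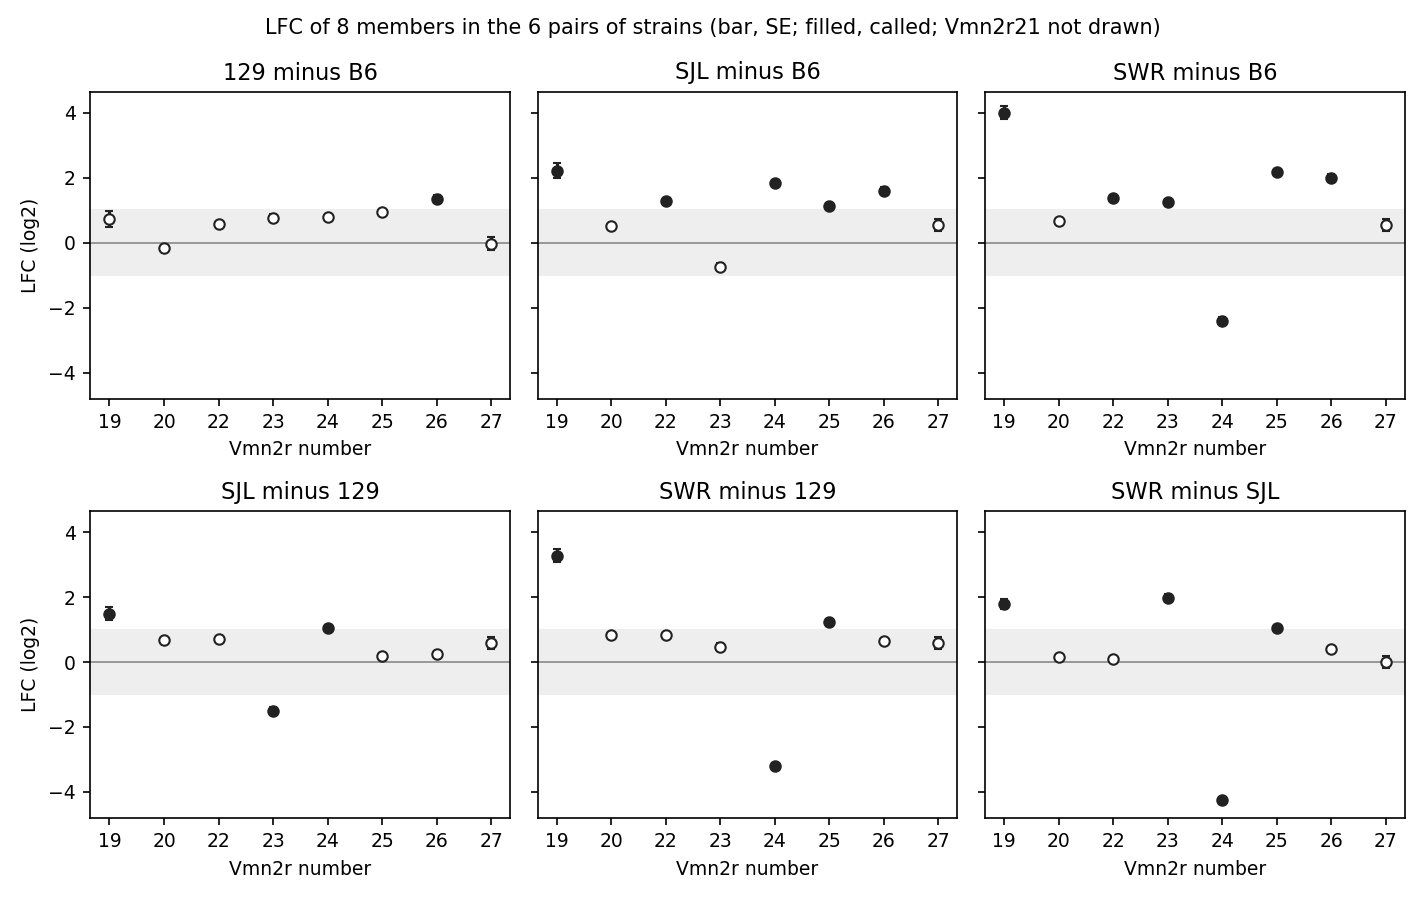
LFC (log2) of 8 genes in each of the 6 pairs of strains, with bars for the SE and filled points for genes called with FC > 2 and FDR < 0.05. The grey band covers LFC between -1 and 1. Vmn2r21 is not drawn, as its fold rests on libraries with 0 to 2 reads. Vmn2r19 is highest in SWR in all 3 pairs with SWR, and Vmn2r24 lowest, with an LFC of -4.26 against SJL.

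Added over the 9 genes, normalized counts ranged from 1541 to 2089 in the B6 mice (median 1769) and from 1777 to 2617 in 129 (median 2326). They ranged from 2699 to 3309 in SJL (median 2907) and from 3187 to 4085 in SWR (median 3571). Every SJL and SWR mouse was thus above every B6 and 129 mouse, and the mean of SWR was 2.01 times that of B6. The summed markers of basal vomeronasal neurons, 5 genes of which none is in the cluster, were likewise lowest in B6 and 129 mice (9683 to 11271 and 9475 to 13148) and higher in SJL (11889 to 14915) and SWR (14791 to 16998), with overlap between 129 and SJL and between SJL and SWR. The higher sum in SJL lay in H2-M10.3, and without it the other 4 markers had 7692 to 9007 in B6, 7732 to 10948 in 129, 8493 to 10339 in SJL and 10885 to 12221 in SWR mice. On that count B6, 129 and SJL overlapped, and Gnao1 and Tfap2e, a transcription factor of basal neurons, had their highest mean in 129. The part of these markers in the cluster sum was not tested, and the share of V2r reads that fell on the cluster, which does not depend on the amount of V2r RNA as a whole, was taken beside it. This share had a mean of 1.62% ± 0.104 in B6 (SD, n = 8 in each strain), and the other strains had 2.62% ± 0.116 (129), 2.89% ± 0.109 (SJL) and 3.26% ± 0.0971 (SWR). On this scale none of the 129 mice overlapped with a B6 mouse, the lowest 129 mouse having 2.46% and the highest B6 mouse 1.76%. The other V2r genes together had normalized counts of 95607 to 117521 in B6 mice and of 66460 to 96958 in 129, and these ranges overlapped.

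Within the cluster, Vmn2r20 took the largest share of the reads in every strain, with means of 44.1% (B6), 30.9% (129), 38.1% (SJL) and 34.8% (SWR). The second share went to Vmn2r23 in B6 (17.5%), 129 (23.1%) and SWR (20.4%). In SJL Vmn2r23 took 6.35%, and Vmn2r22 (17.6%) and Vmn2r24 (17.6%) came after Vmn2r20. Vmn2r24 took 0.773% in SWR.

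**Figure D4:**
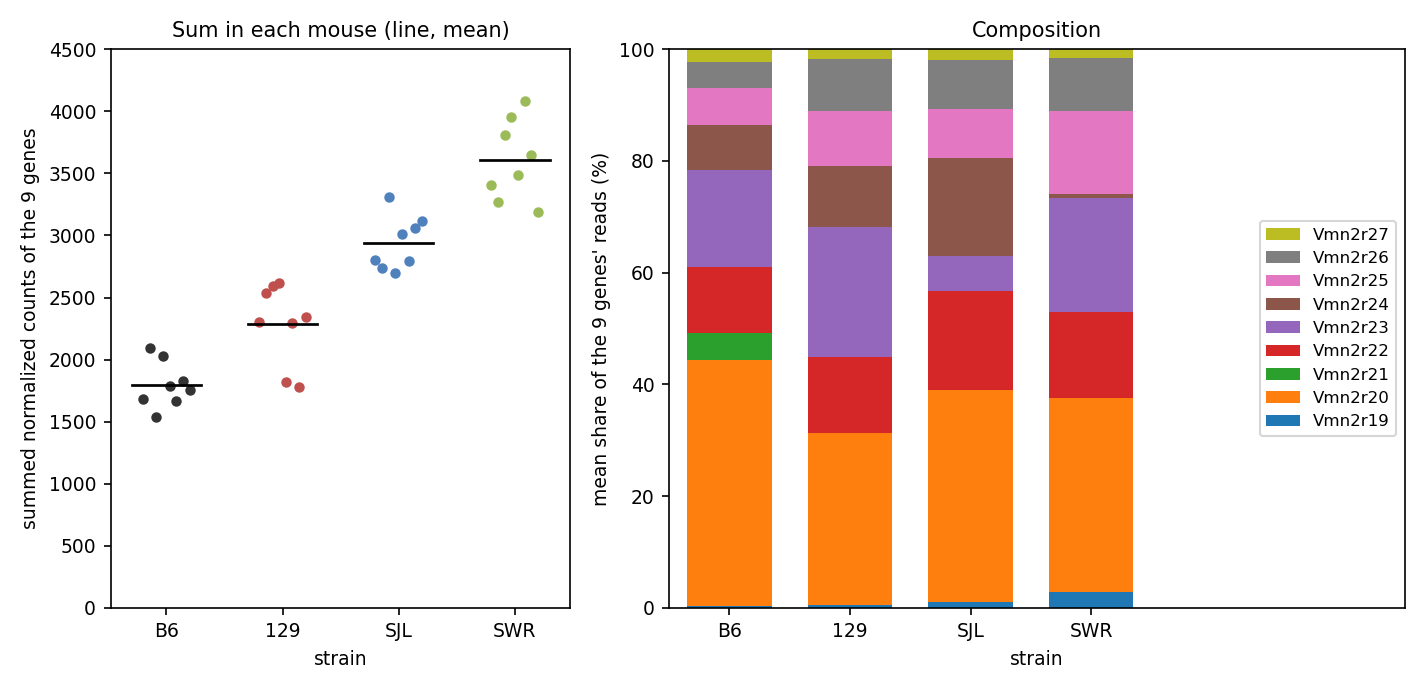
Left, summed normalized counts of the 9 genes in each mouse (points) with the strain mean (line), on an axis from 0. Right, the mean share of each gene in the reads of the 9 genes, in percent, for the 8 mice of each strain. The mean sum is 1796 in B6 and 3606 in SWR, and the bars differ by the Vmn2r21 part in B6, the small Vmn2r23 part in SJL and the near absence of Vmn2r24 in SWR.

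Compared per length, in TPM, which divides the reads of a gene by its length and scales each library to 1 total, Vmn2r20 had the highest mean of the 9 genes in each strain. Over the union of exons it had a TPM of 10.38 ± 1.24 in B6 (SD, n = 8 in each strain), of 7.998 ± 1.38 in 129, of 14.8 ± 1.17 in SJL and of 16.3 ± 0.879 in SWR. Over the coding length it was also the highest, at 36.9 in B6 and 57.01 in SWR. Vmn2r22 came next over exons in 129 (7.66 ± 1.505), SJL (14.8 ± 1.51) and SWR (15.5 ± 1.64), within the spread of Vmn2r20. In B6 the next over exons were Vmn2r21 (6.73 ± 1.70) and Vmn2r22 (6.02 ± 0.820), which do not differ beyond their spread. The coding length gave another picture. In B6 Vmn2r23 then came next at 14.8 ± 3.59, with Vmn2r22 at 9.89 ± 1.19 and Vmn2r21 at 3.97 ± 1.15. Vmn2r22 then had 14.2 in 129, 24.4 in SJL and 25.1 in SWR, against 32.0, 53.0 and 57.01 for Vmn2r20. The lowest exon TPM was that of Vmn2r19 in B6 (0.494 ± 0.217) and of Vmn2r21 elsewhere, followed by Vmn2r24 in SWR (0.496 ± 0.133). The exon union of GENCODE M21 runs from 2562 bases for Vmn2r21 to 17689 for Vmn2r23, so that 4 to 7 of the 9 genes changed their place in a strain's order between the 2 lengths. Ranked by coding TPM among 121 V2r genes, Vmn2r20 stood at place 43 (B6), 40 (129), 29 (SJL) and 26 (SWR). The other members stood between 81 and 119 in B6, and between 49 and 119 in SWR. Vmn2r23 was the member after Vmn2r20 in 129 (place 46) and SWR (place 49), and Vmn2r24 in SJL (place 52).

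**Figure D5:**
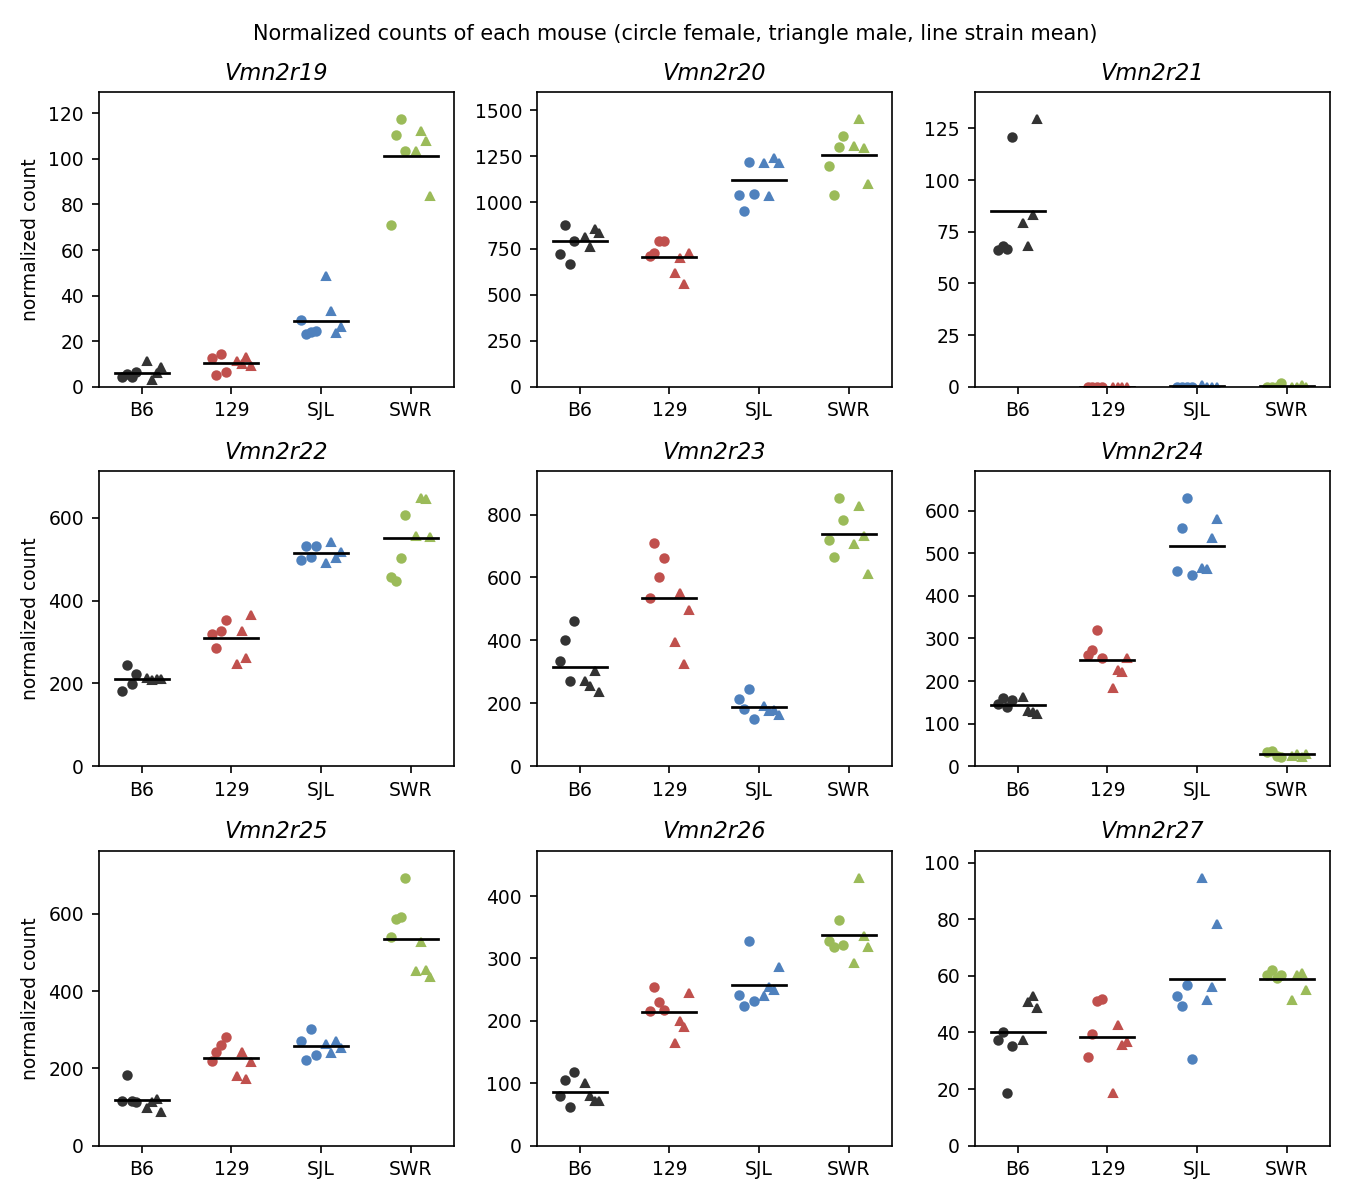
Normalized counts of the 9 genes in each of the 32 mice, with 1 panel per gene, an axis from 0 and the strains side by side. Circles are females, triangles are males and lines are strain means of 8 mice. Vmn2r24 separates all 4 strains, Vmn2r21 has counts above 2 only in B6, and Vmn2r27 overlaps in every pair.

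Vmn2r21 (ENSMUSG00000093820) was the member with reads in B6 and almost none elsewhere. In B6, its normalized count was 66.1 at the lowest, 73.7 at the median and 130 at the highest mouse, from 49 to 136 reads. In 129 all 8 libraries had 0 reads. In SJL 1 library of 8 had 1 read, and in SWR 1 library had 2 reads and 1 had 1. No B6 mouse overlapped with a mouse of another strain. With 3 reads per library as the floor, the B6 mean of 85.2 ± 25.6 was at least 27.9-fold higher than in 129, at least 29.5-fold higher than in SJL and at least 30.2-fold higher than in SWR. All 3 pairs with B6 were called by edgeR (FDR 9.01e-16, 8.67e-16 and 1.31e-15), as in 2.85% of all genes. A count of 0 here covers reads that place uniquely on the B6 copy, and the 101 windows of its own are few. How reads of the other strains place on this copy was not tested.

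The next copy on either side was measured in all strains. Vmn2r20 (ENSMUSG00000094145) had normalized counts of 664 to 880 in B6 (median 803), 560 to 792 in 129 (median 717), 951 to 1243 in SJL (median 1131) and 1041 to 1454 in SWR (median 1298). All SJL and SWR mice were above all B6 and 129 mice, while B6 and 129 overlapped, as did SJL and SWR. Its largest LFC was 0.83 ± 0.07 (SE) for SWR against 129, with an FDR of 2.57e-11 by edgeR, which is under the fold limit. The LFC for 129 against B6 was -0.16 (FDR 0.0654) and had the opposite sign, 0.19, when scaled to the other V2r genes.

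Vmn2r22 (ENSMUSG00000095486) ran from 181 to 246 in B6 (median 210), from 248 to 365 in 129 (median 322), from 492 to 541 in SJL (median 511) and from 448 to 647 in SWR (median 556). B6 was lowest without overlap with any strain, and 129 was below both SJL and SWR without overlap. It was called against B6 in SJL (LFC 1.29 ± 0.08, FDR 1.56e-15 by edgeR) and in SWR (1.39 ± 0.08, FDR 1.92e-16). The LFC of SWR against SJL was 0.10 ± 0.07 (FDR 0.324), which did not pass the test. The LFC for 129 against B6, 0.56, was under the fold limit. Since reads can be exchanged between the copies, the sum of Vmn2r20, Vmn2r21 and Vmn2r22 was also taken. It was 929 to 1194 in B6, 821 to 1146 in 129, 1484 to 1747 in SJL and 1489 to 2102 in SWR, so that B6 and 129 overlapped and were below all mice of the other strains. The sum does not contain reads that fit several copies equally.

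Vmn2r25 and Vmn2r26, the other pair of close copies, were both lowest in B6 and highest in SWR. Vmn2r25 (ENSMUSG00000094672) had 86.8 to 182 normalized counts in B6 (median 115), 173 to 281 in 129 (median 231), 220 to 302 in SJL (median 258) and 436 to 693 in SWR (median 533). Every SWR mouse was above every other mouse, 129 and SJL overlapped, and B6 overlapped with 129 only. SWR was called against B6 (LFC 2.18 ± 0.10, FDR 3.16e-19 by edgeR), against 129 (1.23 ± 0.09) and against SJL (1.04 ± 0.09). The call against SJL lies close to the fold limit, and the LFC was 0.989 without SJL female replicate 2 and 0.995 without SWR female replicate 4, which ends the call. That call also ended in males alone (0.85) and on the scale of the other V2r genes (0.93), and the one against 129 ended on that scale (0.90). SJL against B6 was called as well (LFC 1.13 ± 0.10, FDR 2.28e-11 by edgeR), but not in females alone (0.96), and 129 against B6 had an LFC of 0.95, under the limit.

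Vmn2r26 (ENSMUSG00000096630), the receptor known as V2r1b, had 61.4 to 118 normalized counts in B6 (median 79.6), 165 to 254 in 129 (median 216), 224 to 328 in SJL (median 245) and 292 to 429 in SWR (median 325). No B6 mouse reached the lowest mouse of the other strains, and SWR overlapped with SJL but not with 129. Each of the other strains was called against B6, with LFCs of 1.35 ± 0.11 in 129 (FDR 3.99e-12 by edgeR), 1.603 ± 0.11 in SJL (FDR 3.80e-14) and 2.001 ± 0.11 in SWR (FDR 6.84e-17). It was the only member called higher in 129 than in B6. The LFC between 129 and SJL was 0.25 ± 0.10 (FDR 0.0454), under the fold limit.

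Vmn2r24 (ENSMUSG00000072780) had the widest spread between strains among the members with reads in all of them. Normalized counts were 123 to 163 in B6 (median 143), 184 to 320 in 129 (median 255), 449 to 629 in SJL (median 501) and 20.8 to 36.8 in SWR (median 26.5), from 24 to 36 reads in SWR. The 4 strains did not overlap in any of the 6 pairs, which held for 0.0870% of all tested genes. SJL was highest and SWR lowest, with 129 and B6 between. The LFC of SWR was -2.41 ± 0.12 against B6, -3.21 ± 0.11 against 129 and -4.26 ± 0.11 against SJL (FDR 2.19e-18, 1.34e-22 and 3.26e-26 by edgeR). It was called in all 3 pairs with SWR, as 1.22% of all genes were. SJL was called above B6 (LFC 1.85 ± 0.09) and above 129 (1.05 ± 0.08). The latter ended in females alone (0.92) and on the scale of the other V2r genes (0.83). Its coding part shares no read-length window with another gene in the B6 reference, and how SWR reads place on it was not tested.

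Vmn2r25, whose 3' end overlaps that of Vmn2r24 on the other strand, was highest in SWR, where Vmn2r24 was lowest. The 2 genes were each counted on their own strand, and the share of reads in the overlap is not known from the tables.

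Vmn2r19 (ENSMUSG00000091260), the first gene of the cluster, was low in B6 and 129 and highest in SWR. Normalized counts were 3.05 to 11.2 in B6 (median 5.82) from 3 to 12 reads, 5.33 to 14.2 in 129 (median 10.53), 23.2 to 48.7 in SJL (median 25.2) and 71.1 to 118 in SWR (median 106). The strains did not overlap, apart from B6 and 129. SWR was called above B6 (LFC 4.01 ± 0.21, FDR 1.11e-17 by edgeR), above 129 (3.28 ± 0.19) and above SJL (1.79 ± 0.16). SJL was called above B6 (2.22 ± 0.22) and above 129 (1.49 ± 0.20). The LFC for 129 against B6 was 0.73 ± 0.25 (FDR 0.0148), under the fold limit.

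Vmn2r23 (ENSMUSG00000091620) had a different order, with SJL lowest. Normalized counts were 237 to 461 in B6 (median 287), 324 to 711 in 129 (median 543), 151 to 246 in SJL (median 179) and 611 to 852 in SWR (median 726). SJL overlapped with B6 only, and 129 overlapped with both B6 and SWR. SWR was called above SJL (LFC 1.98 ± 0.11, FDR 4.62e-16 by edgeR) and above B6 (1.25 ± 0.11), and SJL was called below 129 (-1.51 ± 0.11, FDR 4.66e-13). The members called between SJL and SWR were thus Vmn2r19, Vmn2r23 and Vmn2r25, higher in SWR, and Vmn2r24, lower in SWR, while Vmn2r26 had an FDR of 0.00158 by edgeR under the fold limit (LFC 0.40).

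Vmn2r27 (ENSMUSG00000072778), the last gene and the one least like the others in sequence, was not called in any pair. Normalized counts were 18.8 to 52.7 in B6 (median 38.8), 18.7 to 51.9 in 129 (median 38.0), 30.6 to 94.6 in SJL (median 54.4) and 51.4 to 62.1 in SWR (median 60.3). All pairs of strains overlapped. Its largest LFC was 0.58 ± 0.19 for SWR against 129 (FDR 0.0123 by edgeR), under the fold limit. The LFC of SWR against SJL was 0.00 ± 0.18.

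Without regard to FC, the 8 mice of each strain did not overlap in 8 of 9 members for SWR against B6 (background 12.5%), 7 for SJL against B6 (background 13.1%), 6 for SWR against 129 (background 13.5%) and 5 for SJL against 129 (background 11.9%). They did not overlap in 4 members for 129 against B6 (background 14.4%) and in 4 for SWR against SJL, as in 1876 of 18382 genes. Vmn2r24 was apart in 6 pairs, Vmn2r19 and Vmn2r22 in 5 and Vmn2r27 in 0.

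Genes of a list drawn up for V2r neurons were compared next. Gnao1, the G protein subunit of basal neurons, had a mean normalized count of 1420 ± 137 in B6 (SD, n = 8 in each strain), against 1900 ± 258 (129), 1548 ± 277 (SJL) and 1652 ± 133 (SWR). Xntrpc, the gene model that carries the transduction channel's reads here, had 715 ± 52.0 (B6), 1213 ± 138 (129), 833 ± 72.8 (SJL) and 1032 ± 110 (SWR). Neither was called in a pair of strains, and of the 10 tested genes on the list of V2r neuron genes, Rtp4, a receptor transport protein, was the single one called. It was lower in 129 than in B6 (165 ± 47.3 against 532 ± 90.3, LFC -1.69, FDR 1.35e-11 by edgeR). It was also higher in SJL than in 129 (LFC 1.07). Which cells of the bulk tissue carried the Rtp4 reads was not tested.

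Of the 7 co-receptors of family C, 1 was called in any pair, Vmn2r5. It was lowest in B6 at 217 ± 44.3, against 710 ± 96.9 in 129, 922 ± 93.4 in SJL and 487 ± 40.4 in SWR, with LFCs of 1.72, 2.09 and 1.18 against B6. Of the 9 H2-Mv genes, 6 were called in at least 1 pair. H2-M10.3 was higher in SJL and SWR, at 4040 ± 381 and 4184 ± 306, than in B6 and 129, at 2056 ± 198 and 2000 ± 164. For SJL against B6 it was not called, since its LFC stayed under the limit. H2-M1 was lowest in SJL (454 ± 64.1) and highest in SWR (1247 ± 138, LFC 1.46). H2-M10.4 was low in both 129 (682 ± 103) and SJL (553 ± 67.9) and higher in B6 (1595 ± 153) and SWR (1759 ± 179). H2-M10.2 was called higher in SJL than in B6 (LFC 1.28), H2-M9 higher in SWR than in 129 and SJL (1.11 and 1.02), and H2-M10.5 lower in SWR than in B6 (-1.15).

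Within 500 kb of the cluster, 26 of 65 listed genes other than the members were tested, and 11 were called in at least 1 pair. A330044P14Rik, a transcribed pseudogene between Vmn2r25 and Vmn2r26, was higher in SWR (73.2 ± 21.4) than in B6 (12.8 ± 5.45), 129 (18.9 ± 7.76) and SJL (14.7 ± 4.53), with LFCs of 2.48, 1.93 and 2.30. Before the cluster lie C-type lectin receptors of myeloid cells. Clec4a3 was highest in SWR (103 ± 6.80) and lowest in 129 (7.23 ± 2.55), with an LFC of 3.79 between them. Clec4n, Clec4a2, Clec4d and the complement receptor gene C3ar1 were lower in 129 than in B6, with LFCs of -1.38, -1.66, -1.27 and -1.74. The 4 summed macrophage markers were 700 to 992 in B6 mice, 334 to 506 in 129, 674 to 847 in SJL and 461 to 649 in SWR. Their part in these differences was not tested.

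After the cluster, Cd163, a scavenger receptor of macrophages, was lowest in SWR (4.45 ± 2.63, against 26.9 ± 11.2 in B6 and 33.1 ± 9.48 in SJL), with an LFC of -2.91 against SJL. C1s2, a complement protease, was highest in SJL (38.4 ± 15.2, against 1.52 ± 1.89 in 129). C1s1 and C1ra were higher in SJL than in 129, with LFCs of 1.36 and 1.20, and C1rl was higher in SWR than in SJL (1.09).

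The genes whose profile over the 32 libraries lay closest to each called member were found by the root mean square (RMS) difference of log2(normalized count + 1) centred on the gene's mean. For Vmn2r25 they were Dpp4 (RMS 0.25), its copy Vmn2r26 (0.36) and Sult1e1 (0.38), and this was the only case in which another member of the cluster was among the 3. For Vmn2r26 they were Zfp365 (0.30), Wdfy1 (0.32) and Rnf144b (0.33), and for Vmn2r22 Vmn2r118 (0.22), Zfp949 (0.22) and Lrpprc (0.22). For Vmn2r21 they were 6820402A03Rik (0.37), Vmn1r188 (0.51) and Vmn2r42 (0.57), of which the first 2 had a mean of 70.0 and 134 in B6 and were at 0 in the other strains. For Vmn2r24 they were Arsi (0.53), Prkx (0.67) and Gm43205 (0.68), for Vmn2r19 Vmn1r-ps15 (0.76), H2-DMb2 (0.78) and Ifi202b (0.78), and for Vmn2r23 A730046J19Rik (0.41), Pqlc3 (0.45) and H2-M1 (0.47). The closest member of the cluster to Vmn2r24 was Vmn2r27, at 1.70. These are descriptions over libraries that share strains, with no test.

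Males and females were compared over all strains, and none of the 9 genes was called by edgeR with FC > 2 and FDR < 0.01 (background 0.0381%). DESeq2 also called 0. At an unadjusted p < 0.05 there were 3 genes by either tool (background 8.97% by edgeR). Vmn2r23 had an LFC of -0.29 ± 0.08 in males relative to females (unadjusted p = 0.00072, FDR 0.135 by edgeR), Vmn2r25 -0.25 ± 0.07 (0.00065, FDR 0.129) and Vmn2r24 -0.16 ± 0.07 (0.024, FDR 0.464). The other 6 genes had LFCs between -0.05 and 0.21. Among the other V2r genes, 26 of 112 had an unadjusted p < 0.05.

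Vmn2r23 had 272 to 461 normalized counts in B6 females and 237 to 302 in B6 males. In 129 the females had 536 to 711 and the males 324 to 550. In both strains the sexes overlapped, as they did in SJL and SWR. For Vmn2r25 the 4 SWR females had 539 to 693 and the 4 SWR males 436 to 527, without overlap. The LFC within SWR was -0.38 ± 0.12 (FDR 0.233 by edgeR), which did not pass the correction. How many of all genes have the sexes apart within SWR was not counted, so the gap is a description only. In the other strains they overlapped.

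The interaction of sex and strain was called for 0 of the 9 genes at an FDR < 0.05 by edgeR (background 0.0163%) and for 0 by the likelihood ratio test of DESeq2. Vmn2r27 had an unadjusted p of 0.014 (FDR 0.456), and 8.94% of all genes had one under 0.05. Its LFC of males against females was 0.56 ± 0.25 in B6, 0.57 ± 0.23 in SJL, -0.40 ± 0.24 in 129 and -0.09 ± 0.22 in SWR, with both signs among the strains. The interaction did not pass the correction.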

How the data were processed

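The authors placed trimmed reads with STAR on the mouse genome (mm10, per the submitters' processing notes) and deposited, for each of 32 libraries, the raw count of uniquely placed reads per gene on the stranded side. They also deposited a normalized signal, in which reads were scaled by DESeq2 size factors. The counts and the normalized values of a library differed by 1 factor for all genes with a read. Only these 2 tables were used. Members and lists were chosen with earlier results of these data known.

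From the counts, strains (6 pairs, sex as covariate), sexes (strain as covariate) and their interaction were tested with edgeR 4.0.16 in R 4.3.3 (TMM, filterByExpr over the 8 groups, quasi-likelihood F test, Benjamini-Hochberg adjustment). A strain call needed an absolute LFC above 1 and FDR < 0.05, a sex call an FDR < 0.01. DESeq2 1.42.0 served for alternatives. SE was derived from the LFC and its F statistic (their ratio after taking the root of F). All 32 libraries share 1 estimate of the spread. Each library is a separate mouse, so p-values measure the spread between mice. The tests were tried on simulated counts with known changes before use. Of 49671 genes, 49326 were matched by identifier to GENCODE M21, and lengths, exons and coding sequences come from it. The exon lengths of the authors' annotation were not used here. A fold against a strain with 3 reads or fewer in each library is a lower bound from 3 reads per library.

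Genes named besides the members followed a rule: the 3 genes with the profile closest to each called member, the neighbours within 500 kb that were called, the called genes of the lists of family C, H2-Mv and V2r neuron genes, and Gnao1 and Xntrpc. Replicate numbers were taken from the library descriptions, which do not say what the number marks. No pair of the 48 within groups matched within sampling noise (chi-square per degree of freedom 2.71 to 48.2). Alternatives were DESeq2's tests, its size factors, no low-count filter, glmTreat, no fold limit, a replicate block, each library left out, each sex alone, a V2r library size, coding lengths and counts scaled to library totals. Added after the data were seen was leaving out both libraries with high ciliated cell markers. Depth per library is given with the results.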

Additional observations from a re-analysis of the deposited data

Results flagged for a closer look

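In groups of 4 mice of 1 strain and sex, 8 of the 72 gene and group combinations had a mouse that stood apart from the other 3 (gap over range above Dixon's critical value for 4 samples). Chance alone flags about 1 in 20 groups. Of these, 3 were Vmn2r21 groups in which 1 mouse had a read and the others 0 (value 1.0): SJL male replicate 1 with 1 read, SWR female replicate 4 with 2 and SWR male replicate 3 with 1. Among B6 females, replicate 4 had 121 normalized counts of Vmn2r21 and the next mouse 68.0 (0.964). B6 female replicate 2 had 182 of Vmn2r25 against 116 in the next mouse (0.972).

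SJL female replicate 3 had 328 of Vmn2r26 against 241 (0.841). SJL male replicate 2 had 1035 of Vmn2r20, below the next mouse at 1214 (0.860). B6 male replicate 1 had 214 of Vmn2r22 against 210 (0.901), where the whole group lay within a narrow range.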

How the results depend on the processing

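Of the 25 called differences of a member between 2 strains, none changed direction under any of the 10 other settings or when a library was left out, and 1042 of the 1050 values kept the call. The setting with FDR alone used the same fit and LFCs as the main test, so its 25 values could not change. The other 8 of the 1050 values fell under the fold limit. Of these, 2, both for Vmn2r25 in SWR against SJL, came from leaving out 1 library (LFC 0.989 and 0.995 without SJL female replicate 2 and SWR female replicate 4). On the scale of the other V2r genes, Vmn2r24 in SJL against 129 (0.83) and Vmn2r25 in SWR against 129 (0.90) and SJL (0.93) fell under it. In males alone Vmn2r25 in SWR against SJL (0.85) did, and in females alone Vmn2r25 in SJL against B6 (0.96) and Vmn2r24 in SJL against 129 (0.92). The number of members called in at least 1 pair was 7 except with glmTreat (8, with Vmn2r20), in males alone (8, with Vmn2r27) and with FDR alone (9). With each library left out, 129 against B6 had 2 to 3 members (3 without B6 female replicate 2) and SWR against SJL 3 to 4. In the main test 19.8% of all tested genes were called in at least 1 pair. That share was not taken under the other settings, nor any share with a library left out. With FDR alone, a single pair had from 32.5% (SWR against SJL) to 52.8% (129 against B6) of all genes called.

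With glmTreat against a fold change of 1.5, 4 members were called in 129 against B6 (1955 of 18382 genes) and 5 in SWR against 129 (7.18% of genes). With FDR alone, these were 7 (52.8%) and 8 (41.8%), and SJL against 129 had 7 (38.3%). With the V2r library size 129 against B6 had 6 members and 1872 of 18382 genes called.

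The replicate numbers gave no clear pairing of the samples, as 5 of 32 libraries correlated best with their own number. Same-numbered libraries had median correlations of -0.024 to -0.010, and differently numbered ones 0.011. For number 1, 9 of 28 pairs were above 0.1, with a highest of 0.477. Numbers 2, 3 and 4 had 6, 4 and 3 such pairs of 28. Different numbers had 74 of 336, with a highest of 0.406. With the replicate block, 7 members were called between strains, 0 between the sexes and 0 for the interaction, as without it. The levels per length of Vmn2r20 were 36.9, 32.0, 53.0 and 57.01 TPM over the coding length in B6, 129, SJL and SWR, against 10.38, 7.998, 14.8 and 16.3 over exons. Low reads limit Vmn2r19 in B6 and Vmn2r21 outside B6.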
